A study of Mus musculus with 4 samples.

Results

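The genes described here are nuclear genes for subunits of the mitochondrial respiratory chain and ATP synthase, measured in macrophages of mouse ear dermis. They were chosen by symbol, with earlier results of these data known. The platform annotation had to give a single symbol of the Nduf (a, b, c, s or v series), Sdh, Uqcr, Cox4 to Cox8 or Atp5 families. Pseudogenes were left out, and the transcript cluster with the highest mean stood for each gene. This gave 78 of the 22180 genes with a single-symbol cluster, of which 72 passed the filter on dim clusters. Complex I had 31 members, complex II 4, complex III 7, complex IV 19 and complex V 17. Ndufa4 and Ndufa4l2 carry complex I names but belong to complex IV and were counted there. Ndufs6, Ndufb2, Ndufb4, Uqcr10 and Cox6c were not analysed here, nor were 10 clusters that pair such a name with another gene, nor the 13 subunits encoded by mitochondrial DNA. The pseudogenes Atp5c1-ps and Uqcrh-ps1 lay at or below 3.51 on every array.

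The series holds 4 Affymetrix arrays, 2 of CX3CR1low and 2 of CX3CR1bright dermal macrophages. All mice were untreated adults of strain C57Bl/6 and genotype Cx3cr1+/gfp, in which GFP occupies an allele of the fractalkine receptor gene; both subsets carry this reporter. Each array held RNA from sorted cells of 3 to 6 pooled mice, and the 2 arrays of each subset stand for independent litters. The subsets are gates on a reporter rather than separately derived lines, and the labels do not say which litters they share.

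The respiratory chain passes electrons from NADH, through complex I, and from succinate, through complex II, to ubiquinone, then through complex III and cytochrome c to oxygen at complex IV. Complexes I, III and IV pump protons across the inner mitochondrial membrane, and complex V, the ATP synthase, uses the gradient to make ATP. In macrophages the chain is also a source of reactive oxygen, and succinate oxidation by complex II, which is an enzyme of the citric acid cycle too, is known for its part in inflammatory activation.

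Values are log2 RMA levels, and differences are CX3CR1bright minus CX3CR1low with the moderated SE. Array medians were 3.65 to 3.68, and a level near them can be background. Cx3cr1, which defined the gate, stood at 3.63 and 3.60 on the CX3CR1low arrays and at 8.42 and 8.44 on the CX3CR1bright arrays. The 11 macrophage markers lay above the array median on all 4 arrays, with mean levels of 10.3 to 10.7. Markers of other skin cells differed between arrays. The 9 measured keratinocyte markers (of 10 listed) had mean levels of 6.02 and 5.48 on the CX3CR1low arrays, 6.31 on CX3CR1bright replicate 1 and 7.79 on CX3CR1bright replicate 2, and all 9 had the higher mean in CX3CR1bright. The Langerhans cell markers Cd207 and Epcam averaged 4.55 and 4.44, then 5.75 and 7.14, in the same order of arrays, and 7 fibroblast markers 6.48 and 6.40, then 7.35 and 7.58. The 4 measured markers of conventional dendritic cells (of 5 listed) averaged 4.85 and 5.06, then 6.25 and 6.16, with 3 of 4 higher in CX3CR1bright. The 5 T cell markers averaged 4.32 and 4.18, then 5.36 and 4.35. Other lists went the other way. The macrophage markers averaged 10.50 and 10.65, then 10.33 and 10.38, with 4 of 11 higher in CX3CR1bright. The 4 mast cell markers averaged 7.76 and 7.99, then 7.55 and 7.48, with 0 higher. Of 5 endothelial markers 1 was higher in CX3CR1bright. On the arrays of such bulk samples, fewer cells of a type and less RNA per cell cannot be told apart.

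No member passed the threshold over all genes (limma, adjusted p of 0.154 or more for every tested member), where 0.137% of all tested genes did. At an unadjusted p under 0.05, 9 of the 72 members (12.5%) were lower in CX3CR1bright and 0 higher, against 11.8% and 7.03% of all tested genes. The share of lower members was thus near the background. Members whose 2 CX3CR1bright values both lay below both CX3CR1low values numbered 25 (34.7%), against 31.5% of all tested genes, and those with the opposite order numbered 3 (4.17%), against 18.9%. In sign, 57 of 72 differences (79.2%) were negative, where 57.5% of all tested genes were, and the median was -0.18 beside -0.070 over all tested genes. The split depends on scaling: 44 of 72 members were negative after quantile normalization and 42 after cyclic loess, beside 51.2% and 48.2% of all tested genes.

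The complexes differed in their medians. Complex II had the lowest, -0.42, with 4 of 4 members negative. Complex I followed at -0.30 with 29 of 31 negative, and complex IV at -0.23 with 12 of 15. These counts depend on scaling too. In complex I, 23 of 31 were negative after quantile normalization and 22 after cyclic loess, and in complex IV 10 of 15 after either. Over all tested genes, 51.2% were negative after quantile normalization and 48.2% after cyclic loess. Complex III had a median of -0.033 with 5 of 7 negative, and complex V of 0.024 with 7 of 15; with quantile normalization or cyclic loess both medians were positive. These medians rest on few arrays, and the difference between complexes was not tested. The plot of all members shows the negative differences of complexes I and II and the spread of complex V around 0.

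**Figure D1:**
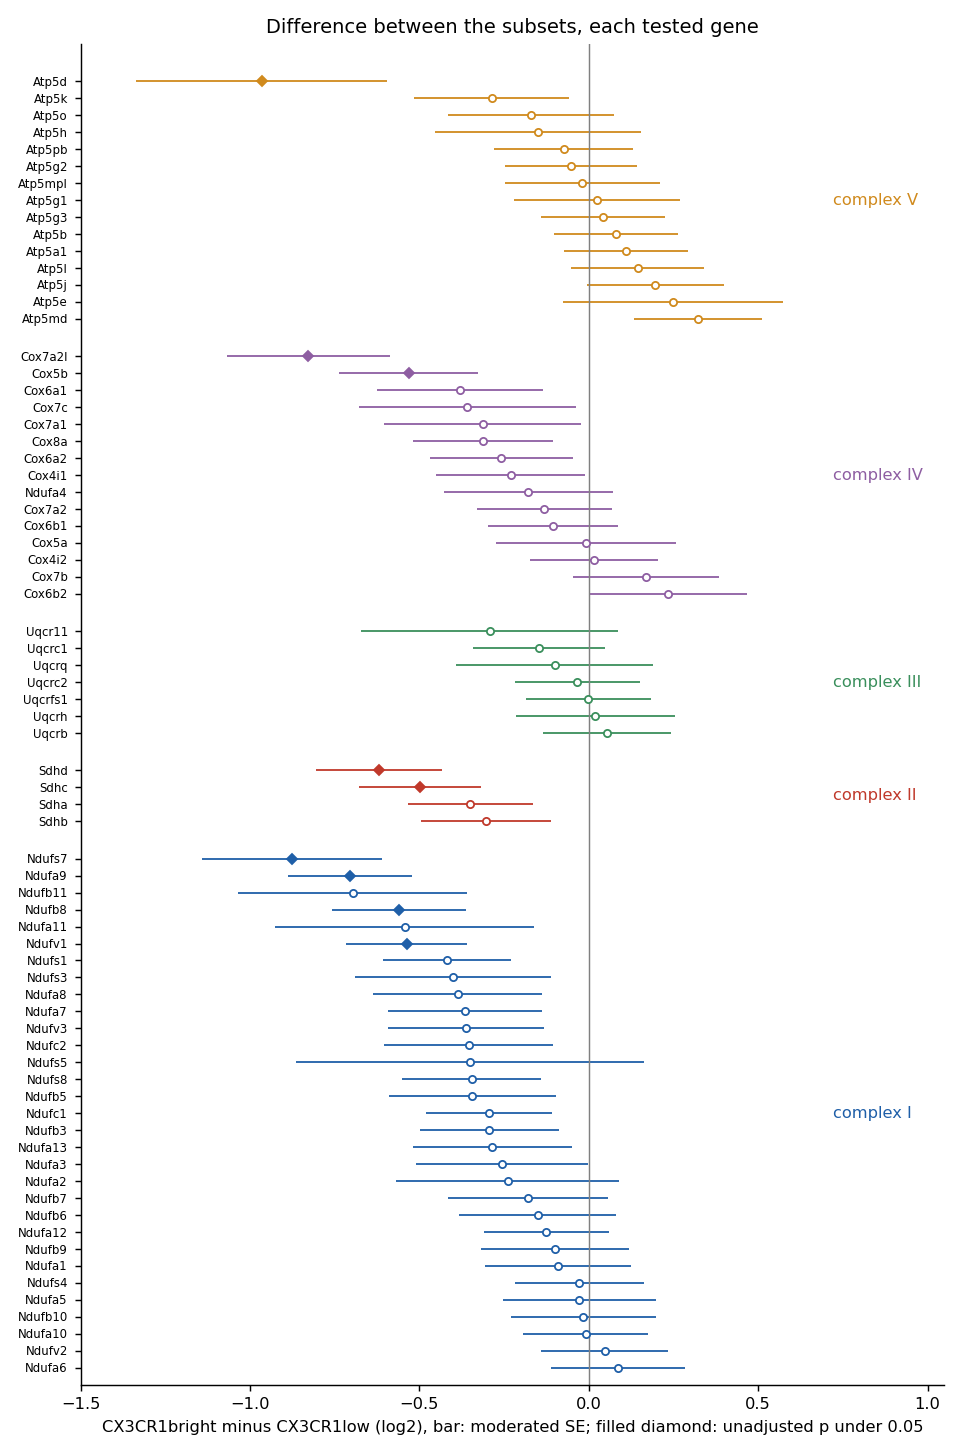
Difference between CX3CR1bright and CX3CR1low macrophages on the log2 scale (x axis) for each of the 72 tested genes (y axis), grouped by complex, with bars for the moderated SE from limma. Filled diamonds mark the 9 genes at an unadjusted p under 0.05, all of them negative; 0 genes passed after adjustment.

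The arrays of CX3CR1bright differed for many members. On replicate 1, 34 of 72 members lay below the CX3CR1low mean, with a median deviation of 0.0073. On replicate 2, 63 lay below it, with a median of -0.41. Over all tested genes the same medians were -0.078 and -0.075. The arrays did not share 1 distribution of cluster levels. Their upper quartiles were 5.52 and 5.49 on the CX3CR1low arrays and 5.44 and 5.45 on the CX3CR1bright arrays. CX3CR1bright replicate 2 was the lowest of the 4 arrays for 54 of 72 members, against 31.9% of all tested genes, and lay below replicate 1 for 64 members (88.9%), against 49.3%. The median distance between replicates over the members was 0.35 in CX3CR1bright and 0.14 in CX3CR1low, and over all tested genes 0.28 and 0.22. The array that was low for these genes was also the one with the highest keratinocyte and Langerhans cell marker levels, given above; their part in the result was not tested.

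**Figure D2:**
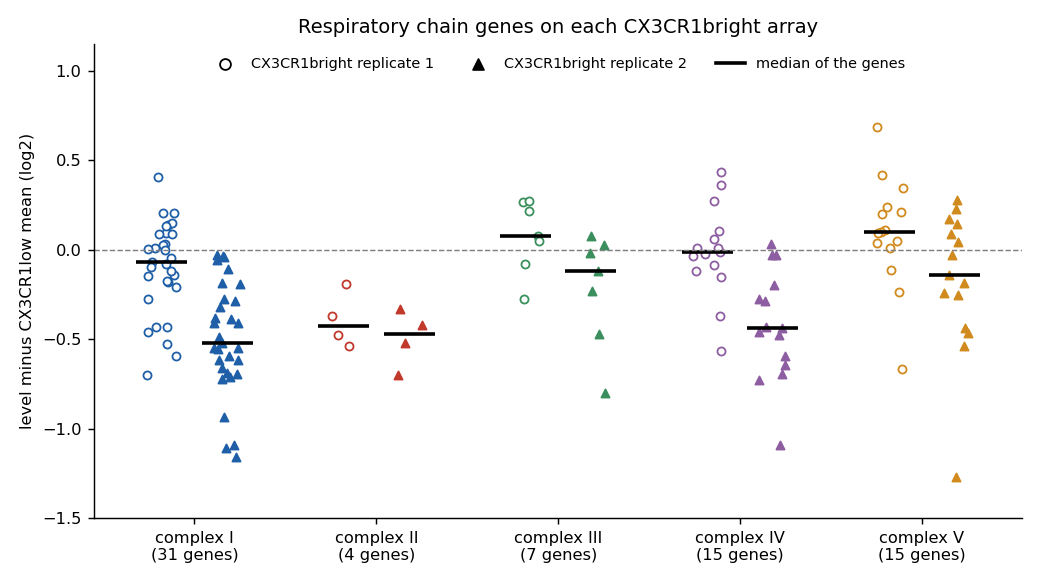
Level on each CX3CR1bright array minus the mean of the 2 CX3CR1low arrays (y axis, log2) for the tested genes of each complex (x axis); open circles are replicate 1, filled triangles replicate 2, and black lines the medians. In complex II both medians lie near each other, at -0.42 and -0.47, whereas in complex I they lie at -0.070 and -0.52 and in complex IV at -0.013 and -0.44.

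Complex II, succinate dehydrogenase, was the exception: all 4 members were lower on both CX3CR1bright arrays. Sdha, the flavoprotein that oxidises succinate, stood at 9.09 and 9.23 in CX3CR1low and at 8.79 and 8.83 in CX3CR1bright. The subsets did not overlap, and the difference was -0.35 ± 0.18 (limma, adjusted p = 0.377). Sdhb, the iron-sulfur subunit, stood at 8.39 and 8.40 against 8.21 and 7.98. Its CX3CR1low values were close together and its difference was -0.30 ± 0.19 (limma, adjusted p = 0.460), larger on replicate 2.

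The membrane anchors, which hold the ubiquinone site, differed more. Sdhc stood at 5.40 and 5.32 in CX3CR1low against 4.88 and 4.84 in CX3CR1bright. That is a difference of -0.50 ± 0.18, 1.41-fold lower (limma, adjusted p = 0.232). Sdhd stood at 7.05 and 7.14 against 6.56 and 6.40, a difference of -0.62 ± 0.19 or 1.54-fold lower (limma, adjusted p = 0.184). Both anchors had an unadjusted p under 0.05, and in both the distance between subsets was larger than the distance between replicates. Groups without overlap in this direction made up 4 of 4 members of complex II, beside the 31.5% of all tested genes.

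The fibroblast and dendritic cell markers given above had higher mean levels on both CX3CR1bright arrays, and the macrophage and mast cell markers lower ones. The part of these cell types in the result was not tested. The complex II median was -0.42 without CX3CR1bright replicate 2 and -0.47 without replicate 1. Its 4 factors of assembly pointed mostly the same way. Sdhaf4, which binds flavinated Sdha and promotes its joining with Sdhb, stood at 6.38 and 6.32 against 5.43 and 5.58, a difference of -0.84 ± 0.18 (limma, adjusted p = 0.122). Sdhaf3, which protects the iron-sulfur subunit during its maturation, stood at 4.18 and 4.21 against 3.46 and 3.73, where the CX3CR1bright values lie near the array medians. In all, 3 of the 4 factors (75%) were negative and without overlap, beside 31.5% of all tested genes. The fourth, Sdhaf1, went the other way at 0.47 ± 0.34, with overlapping subsets. The median of the 4 was -0.45, and 0 passed the threshold.

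**Figure D3:**
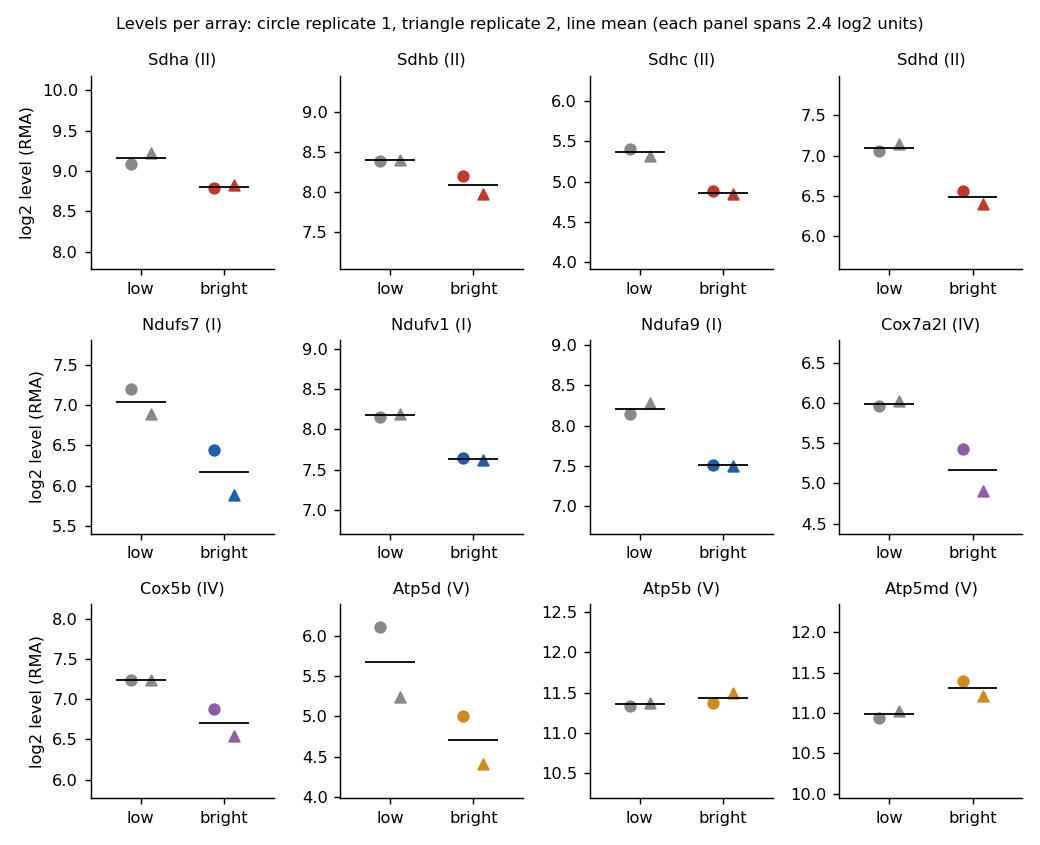
Log2 RMA level (y axis) of 12 genes in CX3CR1low (grey) and CX3CR1bright (coloured by complex) macrophages, with circles for replicate 1, triangles for replicate 2 and lines for the mean of 2 arrays; complex numbers are in brackets. The 4 Sdh genes, Ndufs7, Ndufv1, Ndufa9, Cox7a2l, Cox5b and Atp5d show no overlap with CX3CR1bright lower, Atp5md shows the opposite order, and Atp5b overlaps.

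Complex I was lower in CX3CR1bright chiefly on replicate 2, where 31 of 31 members lay below the CX3CR1low mean, against 17 of 31 on replicate 1. The core subunits bind NADH and carry electrons along iron-sulfur clusters to ubiquinone. Their median deviations were -0.32 and -0.52 on replicates 1 and 2, where 5 of 6 and 6 of 6 lay below the CX3CR1low mean. Of the 6, 4 (66.7%) were lower without overlap, beside 31.5% of all tested genes. Ndufs7, the core subunit nearest to ubiquinone, stood at 7.20 and 6.89 in CX3CR1low against 6.45 and 5.89 in CX3CR1bright. Its difference of -0.88 ± 0.27, 1.84-fold lower, was the most negative of the complex (limma, adjusted p = 0.185). Replicates were 0.31 apart in CX3CR1low and 0.56 apart in CX3CR1bright.

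Ndufv1, which holds the flavin that accepts electrons from NADH, had the tightest replicates of the named core genes. It stood at 8.16 and 8.19 against 7.65 and 7.62, a difference of -0.54 ± 0.18 (limma, adjusted p = 0.207). Ndufs1, the large iron-sulfur subunit, stood at 6.45 and 6.25 against 5.92 and 5.94, also with no overlap, at -0.42 ± 0.19 (limma, adjusted p = 0.316). The core subunit Ndufv2, named after its values were seen, had a difference of 0.047 ± 0.19 with overlapping subsets.

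Among the accessory subunits of the matrix arm, 7 of 8 were negative with a median of -0.18. Ndufa9, which lies by the ubiquinone site, had the smallest p of complex I. It stood at 8.15 and 8.28 against 7.51 and 7.51, a difference of -0.70 ± 0.18, 1.63-fold lower (limma, adjusted p = 0.154). Its CX3CR1bright replicates differed by 0.0079. Ndufa6 was the member with the most positive difference in complex I, 0.087 ± 0.20, with overlapping subsets.

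All 17 accessory subunits of the membrane arm had negative differences, with a median of -0.29. The negative median came mainly from 1 array: the median deviation from the CX3CR1low mean was 0.0058 on CX3CR1bright replicate 1 and -0.52 on replicate 2. Below that mean lay 8 of 17 on replicate 1 and 17 of 17 on replicate 2, beside 57.6% and 56.2% of all tested genes. Of the 17, 6 (35.3%) had no overlap, near the 31.5% of all tested genes in this direction. The fourth complex I gene at an unadjusted p under 0.05 was Ndufb8, of this arm, named after its values were seen. It stood at 7.58 and 7.47 against 7.09 and 6.83, a difference of -0.56 ± 0.20 (limma, adjusted p = 0.226).

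In complex III, whose median lay near 0, the core genes stood close together: Uqcrfs1, the Rieske iron-sulfur protein, was at 5.38 and 5.41 in CX3CR1low and 5.32 and 5.47 in CX3CR1bright, a difference of -0.0011 ± 0.18. Uqcrc1, a core protein, was at 9.59 and 9.62 against 9.33 and 9.59, the 1 member of the complex without overlap, at -0.15 ± 0.20. The small accessory subunits Uqcr11 and Uqcrq had the widest CX3CR1bright replicates. Uqcr11 stood at 7.33 and 6.95 against 7.36 and 6.34, and Uqcrq at 6.14 and 6.09 against 6.39 and 5.64. In each, replicate 1 was the highest of the 4 arrays and replicate 2 the lowest, so the differences of -0.29 ± 0.38 and -0.10 ± 0.29 are averages of opposite deviations. Uqcrb had the most positive difference, 0.053 ± 0.19.

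Complex IV, cytochrome c oxidase, has a catalytic centre encoded by mitochondrial DNA, surrounded by nuclear subunits. Of 10 subunits used in most tissues, 9 were negative with a median of -0.20. On CX3CR1bright replicate 1 their median deviation was -0.0015 and on replicate 2 it was -0.45, with 10 of 10 below the CX3CR1low mean. Cox5b, a nuclear subunit that binds zinc, stood at 7.24 and 7.24 against 6.87 and 6.54, a difference of -0.53 ± 0.20 (limma, adjusted p = 0.257). A second Cox5b cluster gave -0.21, so the size depends on the cluster. Cox4i1, at 11.07 and 11.01 against 11.02 and 10.60, and Cox5a, at 9.27 and 8.96 against 9.39 and 8.83, overlapped between subsets. Cox6a1 and Cox8a had no overlap, at -0.38 ± 0.24 and -0.31 ± 0.21, while Cox6b1, Cox7a2 and Ndufa4 overlapped, at -0.10 ± 0.19, -0.13 ± 0.20 and -0.18 ± 0.25. Cox7b was the exception in sign at 0.17 ± 0.22.

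Cox7a2l was listed here as a factor for supercomplexes of complexes III and IV, a role not measured in these mice. This gene had the most negative difference of the complex IV group. It stood at 5.96 and 6.02 in CX3CR1low against 5.43 and 4.90 in CX3CR1bright, -0.83 ± 0.24 or 1.77-fold lower (limma, adjusted p = 0.177). The difference was -0.57 without CX3CR1bright replicate 2 and -1.09 without replicate 1.

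Of the tissue isoforms, 4 of 8 were too dim to test. Cox7b2 and Cox8c, isoforms of testis, lay at 2.29 to 3.29, Cox8b, of heart and skeletal muscle, at 2.38 to 2.55, and Ndufa4l2, a gene induced by hypoxia, at 3.40 to 3.86. The muscle isoforms Cox6a2 and Cox7a1 differed by -0.26 ± 0.21 and -0.31 ± 0.29, where 6 skeletal muscle markers averaged 4.04 and 4.37 in CX3CR1low and 4.07 and 4.22 in CX3CR1bright. Cox4i2 differed by 0.015 ± 0.19 at levels of 3.99 to 4.18, near background. Cox6b2, another testis isoform, had the most positive difference of the complex at 0.23 ± 0.23, with overlapping subsets. Levels are not compared between isoforms, since each cluster has its own probes.

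Complex V had members on both sides of 0. The catalytic head, where ATP is made, stood at nearly the same level in both subsets. Atp5b was at 11.33 and 11.38 in CX3CR1low against 11.37 and 11.50 in CX3CR1bright, a difference of 0.079 ± 0.18. Atp5a1 was at 10.16 and 10.23 against 10.24 and 10.37, without overlap but at only 0.11 ± 0.18 (limma, adjusted p = 0.802). Atp5md, a small subunit of the membrane part, had the most positive difference of all members: 10.94 and 11.03 against 11.40 and 11.21, or 0.32 ± 0.19 (limma, adjusted p = 0.426). The third member higher without overlap, Atp5j of the peripheral stalk, was named after its values were seen and differed by 0.20 ± 0.20.

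Atp5d, the delta subunit of the rotor stalk, had the most negative difference of all members. It stood at 6.11 and 5.24 against 5.01 and 4.40, -0.97 ± 0.37 (limma, adjusted p = 0.256). Replicates were 0.87 apart in CX3CR1low, and a second Atp5d cluster gave -0.23, so the size depends on the cluster. Atp5k, of the membrane part, overlapped at -0.29 ± 0.23. The c-ring genes Atp5g1, Atp5g2 and Atp5g3, which encode the same mature proton-carrying subunit, differed by 0.024 ± 0.24, -0.052 ± 0.19 and 0.043 ± 0.18, all with overlap. Levels of Atp5g1 were 3.75 to 4.27, near background. Atp5c1 and Atp5j2 were too dim to test, at 3.25 to 3.87 and 3.15 to 3.82. For 9 members the annotation gave several clusters, and in 3, Atp5e, Atp5h and Cox7b, the clusters differed in sign.

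The genes lay mostly in the upper range of levels, where negative differences were common throughout the arrays. Tested genes were split by mean level into 4 bins of equal size. In the highest bin 64.7% of all genes were negative with a median of -0.12. The 41 members there had 31 negative and a median of -0.099. In the next bin 63.8% of all genes were negative with a median of -0.13, and the 17 members there had 15 negative and a median of -0.35. The 11 members of the bin below had 10 negative and a median of -0.30, beside -0.038 over all genes. The most expressed members thus lay where all genes of that level lay, and the lower medians belonged to members of middle level.

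**Figure D4:**
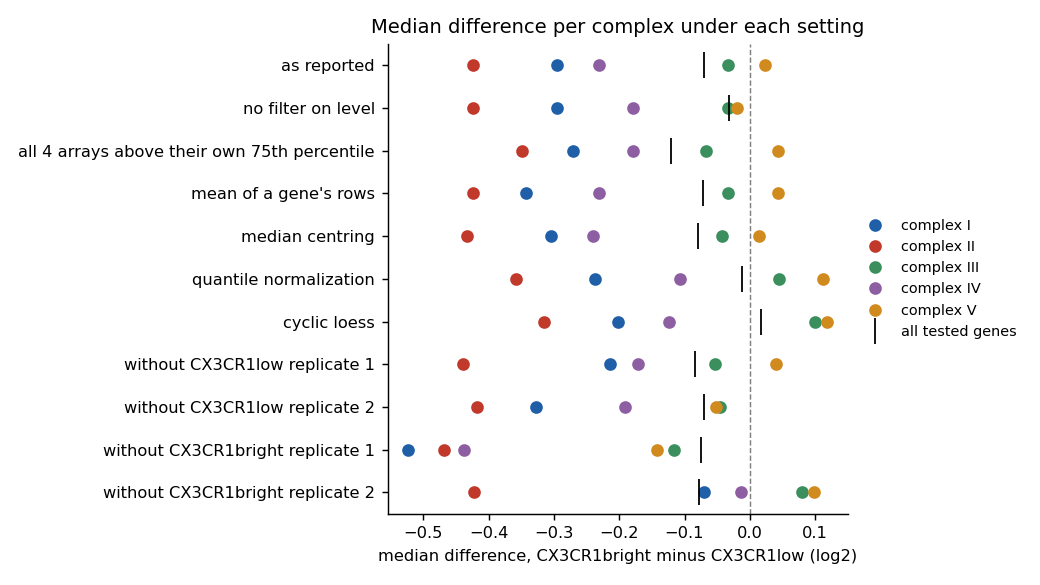
Median difference between CX3CR1bright and CX3CR1low (x axis, log2) for the tested genes of each complex (coloured points) and for all tested genes (black ticks), as reported and under 10 alternative settings (y axis). Complex II stays between -0.47 and -0.31, while without CX3CR1bright replicate 2 complex I lies at -0.070, beside -0.078 for all tested genes.

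Without CX3CR1bright replicate 2, 34 of 72 members (47.2%) were negative, beside 57.6% of all tested genes, and the median was 0.0073. Members at an unadjusted p under 0.05 and lower then numbered 1 (1.39%), against 9.95% of all tested genes. Without replicate 1 they numbered 16 (22.2%), against 12.7%, with 63 members negative and a median of -0.41. Without CX3CR1low replicate 1 or CX3CR1low replicate 2 they numbered 2 (2.78%) in each case, against 6.43% and 5.25%. Complex II had 4 of 4 members negative in each of these settings.

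Other genes of the pathway gave no call either; 0 passed the threshold in any list. Of 14 tested factors of complex I assembly, 10 were negative with a median of -0.16, and Nubpl, an iron-sulfur carrier, and Ndufaf1 differed by -0.41 ± 0.19 and 0.39 ± 0.21. Of 20 complex IV factors, 16 were negative with a median of -0.18. Cox10, which makes the heme of complex IV, stood at 5.39 and 5.26 in CX3CR1low against 4.18 and 4.27 in CX3CR1bright, -1.10 ± 0.18 or 2.15-fold lower (limma, adjusted p = 0.0930), on both arrays alike. Cox18, which inserts a mitochondrially made subunit into the membrane, differed by -0.54 ± 0.21. Of the 5 tested complex III factors 4 were negative, among them Bcs1l and Uqcc3 at -0.69 ± 0.31 and -0.37 ± 0.19. The 4 complex V factors split evenly, with the chaperone Atpaf2 at -0.59 ± 0.20 and Fmc1 at 0.69 ± 0.26. The accessory subunit Ndufab1 and cytochrome c (Cycs), outside the symbol rule, differed by -0.26 ± 0.22 and 0.072 ± 0.20.

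Ubiquinone synthesis and electron entry had 11 of 17 negative and a median of -0.071, near that of all tested genes. Coq10a, a ubiquinone-binding protein, stood at 6.57 and 6.87 against 5.89 and 5.73, -0.91 ± 0.21 (limma, adjusted p = 0.131), and Coq7, a hydroxylase of the pathway, differed by -0.60 ± 0.21. Of 16 tested genes for mitochondrial biogenesis and mitochondrial DNA expression 11 were negative, with a median of -0.17. The coactivator gene Pprc1 stood at 8.37 and 8.30 against 7.50 and 7.83, -0.67 ± 0.21 (limma, adjusted p = 0.189), and the nuclear receptor gene Esrra differed by -0.63 ± 0.26. All 6 tested carrier and porin genes were negative, with Vdac1 at -0.29 ± 0.20 and Slc25a4 at -0.26 ± 0.19. Mitochondrial ribosomal protein genes had 52 of 68 negative and a median of -0.19. At an unadjusted p under 0.05, 6 were lower and 3 higher, 13.2% in both directions together against 18.8% of all tested genes. Examples ran in both directions, with Mrpl49 at -0.76 ± 0.19 and Mrpl52 at 0.66 ± 0.20. Protein import genes split 11 to 11 with a median of -0.0063, among them Timm10b at -0.63 ± 0.20 and Timm8a2 at 0.60 ± 0.22.

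Promoters were read for what the members share besides their names. RefSeq windows of 300 bases (GRCm38.p6, 250 before to 50 after the gene's start) were found for 64 of the 78 members, 69 windows in all. The letters GCGCA and GCGC with any 1 base between them, bound by NRF1, were in 23.2% of the member windows, against 4.60% of all windows and 8.98% of windows of tested genes. The ETS letters CCGGAAG, bound by GABP, were in 24.6%, against 8.86% and 15.7%. The YY1 letters AAGATGGCG were in 8.70%, against 461 of 32851 windows and 2.65%, and TATAAA in 9 of 69 windows, against 13.6% and 8.13%. Both strands were searched, and matches of different motifs overlapped in 0 member windows. A match is a description of letters and not a bound site.

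Medians with and without a motif were set side by side, with no test. The 14 tested members with the NRF1 letters had a median of -0.23 and the 46 without them -0.22. With the ETS letters the medians were -0.18 and -0.26, and with the YY1 letters -0.30 over 5 members and -0.18 over 55. The 4 windows shown are those of Sdhd and the 2 complex I genes with the smallest p, which were lower in CX3CR1bright, and of Atp5md, which had the most positive difference; capitals mark motif matches. Ndufs7 and Ndufa9 both hold the YY1 letters just after the start, but so does Ndufs4, named after its values were seen, whose difference was -0.028. Sdhd holds the NRF1 and ETS letters, Ndufs7 also the TATA letters, and Atp5md the ETS and TATA letters.
Sdhd, chr9:50603800-50604099, minus strand: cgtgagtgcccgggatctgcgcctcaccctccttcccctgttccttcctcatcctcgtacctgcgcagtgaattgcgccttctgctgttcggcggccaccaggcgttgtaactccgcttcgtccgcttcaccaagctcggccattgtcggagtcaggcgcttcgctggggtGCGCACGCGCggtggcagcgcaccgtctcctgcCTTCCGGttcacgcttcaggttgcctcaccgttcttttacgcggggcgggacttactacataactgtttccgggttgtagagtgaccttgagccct
Ndufs7, chr10:80249199-80249498, plus strand: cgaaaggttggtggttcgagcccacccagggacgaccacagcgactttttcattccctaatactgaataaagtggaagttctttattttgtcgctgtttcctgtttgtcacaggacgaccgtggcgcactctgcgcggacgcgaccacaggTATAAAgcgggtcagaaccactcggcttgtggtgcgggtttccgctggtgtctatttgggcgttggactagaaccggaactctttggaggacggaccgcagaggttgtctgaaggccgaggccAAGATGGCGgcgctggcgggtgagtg
Ndufa9, chr6:126849095-126849394, minus strand: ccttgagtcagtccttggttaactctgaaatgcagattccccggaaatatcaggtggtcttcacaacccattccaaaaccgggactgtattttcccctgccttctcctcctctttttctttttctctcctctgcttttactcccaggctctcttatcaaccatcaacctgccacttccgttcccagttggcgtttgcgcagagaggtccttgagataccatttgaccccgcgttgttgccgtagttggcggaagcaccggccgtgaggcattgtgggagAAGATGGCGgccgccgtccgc
Atp5md, chr19:47090598-47090897, minus strand: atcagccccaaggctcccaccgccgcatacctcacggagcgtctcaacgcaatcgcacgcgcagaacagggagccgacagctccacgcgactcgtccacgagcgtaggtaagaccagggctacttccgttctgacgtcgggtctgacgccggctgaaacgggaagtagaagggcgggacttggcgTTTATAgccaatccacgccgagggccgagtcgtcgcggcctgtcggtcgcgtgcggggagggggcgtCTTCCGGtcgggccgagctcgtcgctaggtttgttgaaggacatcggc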

How the data were processed

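The deposited values are log2 expression levels per transcript cluster, which the submitters' processing notes credit to RMA (Expression Console 1.4 of Affymetrix). RMA corrects background, gives the probe values of the arrays 1 distribution and then summarises the probes of a cluster. The genome build is not given in the sources used here, nor the annotation release, and probe intensities were not used here. Of 34390 clusters, 23521 carried 1 gene symbol in the platform annotation, 1814 several and 9055 none; 23328 of the single-symbol clusters matched RefSeq (GRCm38.p6) by Entrez identifier, and 0 symbols were updated. The cluster with the highest mean stood for each of 22180 genes, and 13133 genes with at least 2 of 4 arrays above the array's own median were tested in a single fit (limma 3.58.1, R 4.3.3, lmFit and eBayes, two-sided, Benjamini-Hochberg over all tested genes, threshold 0.05; 2 residual and 3.28 prior degrees of freedom). Members were read from that fit. Precision is limited by the number of arrays, 2 per subset, and a p-value covers only how pools of mice vary. The procedure was tested on simulated data with planted differences larger than that of any member. That test therefore does not show whether differences of the members' size would be found.

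Named members are all of complex II; in each other complex the 3 with the smallest p and the extremes of difference; core subunits listed by name (among them Ndufs1, Ndufv1, Uqcrc1, Uqcrfs1, Cox4i1, Cox5a, Atp5a1 and Atp5b); isoform pairs; and the 2 with the smallest p of each further list. The members and lists were chosen with earlier results of these data known. Alternatives covered the filter, the scaling, the variance model, the choice of cluster, a replicate block and each array left out.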

Additional observations from a re-analysis of the deposited data

How the results depend on the processing

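No member passed the adjusted threshold under any of the 13 alternatives (limma, 0 in each), and the sign of each Sdh gene stayed negative wherever it was tested. With cyclic loess 4 members (5.56%, against 8.48% of all tested genes) were lower at an unadjusted p under 0.05, and the intensity trend gave 1 higher member. With the mean of a gene's clusters 7 members (9.72%, against 11.8%) were lower at that threshold. The median of all members was -0.094 after quantile normalization and -0.085 after cyclic loess, that of complex II -0.31 after cyclic loess and that of complex IV -0.11 after quantile normalization. With 1 array left out, lower members at that threshold numbered 1 to 16 and higher ones 0 to 1, and medians ran from -0.41 to 0.0073 over all members, from -0.52 to -0.070 in complex I and from -0.44 to -0.013 in complex IV; why the CX3CR1bright arrays differ was not tested. Over all genes 18 passed the adjusted threshold as reported, 435 with the stricter filter, 308 with the intensity trend, 33 with cyclic loess, 1 after quantile normalization, with no filter or with the robust prior, and 0 with the block or, with 1 array left out, 0 to 154. The medians of complexes III and V, near 0, changed sign between settings (-0.12 to 0.10 and -0.14 to 0.12). Of 36 tested named members, 22 kept their sign throughout. With the replicate number as a block 8 members (11.1%, against 12.4% of all tested genes) were lower at that threshold; deviations of same-numbered arrays correlated at 0.16, and the labels do not say that numbers mark a litter. Ndufa4 and Ndufa4l2 counted in complex I, a setting chosen after seeing the data, gave medians of -0.29 and -0.24 for complexes I and IV.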
